A study of Homo sapiens with 12 samples.

Results

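The genes described here are 5 neighbours of the kallikrein cluster on human chromosome 19: KLK2, KLK3, KLK4, KLK15 and the pseudogene KLKP1. They were chosen by gene symbol, matched through their Ensembl identifiers, and are 5 of the 63568 genes in the deposited table. The data are RNA-seq profiles of LNCaP cells, an androgen-sensitive line derived from a human prostate cancer metastasis. SMARCA4, which encodes the ATPase BRG1 of the SWI/SNF chromatin remodelling complex, was knocked down with either of 2 siRNAs. RNA was collected 72 h or 144 h after the first transfection. As the methods state, cells kept for 144 h were split and transfected again with siRNA at 72 h. The 144 h libraries thus differ from the 72 h ones by that step as well as by time. Control cells received a non-targeting siRNA (si-NT), which the table calls Scrambled. There are 12 libraries in 4 groups: 2 si-NT and 4 BRG1 depleted libraries at each time point, with 2 libraries per siRNA. All groups are the same unmodified line with transient transfection, and the siRNAs are named by the numbers 2 and 3 that the table gives them. The sample titles number them 1 and 2 instead, and which number stands for which siRNA is not stated. In addition, the title and the treatment label of 1 depleted 72 h library name different siRNAs, so the values by siRNA follow the table's column names alone. Nothing states that libraries of a group came from separate cultures, so the p-values measure only the spread between these libraries.

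Kallikreins are secreted serine proteases. In the luminal cells of the prostate, the androgen receptor switches on several of them. KLK3 encodes prostate-specific antigen (PSA), which liquefies semen and serves as the blood marker of prostate cancer. KLK2 encodes human kallikrein 2, a trypsin-like protease that can cleave the PSA precursor into its active form. KLK4 encodes a trypsin-like protease of prostate and of developing tooth enamel, and KLK15 a further trypsin-like protease. KLKP1 is a kallikrein pseudogene that is transcribed.

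In their order along chromosome 19 of GRCh37, the genes start with KLK15 (ENSG00000174562.9) from 51328545 to 51340469 on the minus strand. KLK3 (ENSG00000142515.10) follows from 51358171 to 51364020 and KLK2 (ENSG00000167751.8) from 51364824 to 51383823, both on the plus strand. KLKP1 (ENSG00000197588.5) lies from 51391122 to 51391524 and KLK4 (ENSG00000167749.7) from 51409607 to 51414651, both on the minus strand. The whole stretch is 86.1 kb long. These spans are those of GENCODE release 44 lifted to GRCh37. The identifier of KLKP1 covers a short model there, and its span in the release the authors used is not known here.

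The promoters of KLK3 and KLK2 are shown because these neighbours resemble each other closely in sequence, while their transcripts differed in the comparison of knock-down with control. Both are RefSeq promoters, found as exact matches on the plus strand of GRCh37, at chr19:51357921-51358220 for KLK3 and at chr19:51376445-51376744 for KLK2. Each runs from 250 bases before the transcription start to 50 bases after it, and the 2 starts lie 18524 bases apart. Capitals mark a relaxed androgen response element, searched on both strands as GNACA and GTNC with 4 bases of any kind between them.
KLK3: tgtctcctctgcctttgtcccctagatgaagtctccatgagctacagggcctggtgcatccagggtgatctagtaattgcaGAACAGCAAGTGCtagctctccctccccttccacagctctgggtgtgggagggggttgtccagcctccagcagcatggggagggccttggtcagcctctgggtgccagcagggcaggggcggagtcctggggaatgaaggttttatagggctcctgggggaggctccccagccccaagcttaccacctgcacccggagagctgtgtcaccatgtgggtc
KLK2: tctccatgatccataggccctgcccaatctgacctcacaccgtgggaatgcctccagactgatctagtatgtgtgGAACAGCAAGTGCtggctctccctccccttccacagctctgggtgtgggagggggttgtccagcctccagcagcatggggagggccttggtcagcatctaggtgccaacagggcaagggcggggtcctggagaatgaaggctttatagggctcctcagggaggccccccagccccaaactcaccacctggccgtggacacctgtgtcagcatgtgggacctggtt

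The same 13 letters of the element stand in both promoters, 169 bases before the start in KLK3 and 175 bases before it in KLK2. Of 269 aligned bases 236 were identical (87.7%), against 54.2% to 64.5% for the other pairs of promoters from different members. The relaxed element occurred in 2.19% of 35116 RefSeq promoters of the same length. It was not found in either RefSeq promoter of KLK4 or in either of KLK15. The first arm of the canonical element, AGAACA, overlapped the element in KLK3 and was absent from the other windows (14.8% of all promoters held one). The TATA box letters TATAAA, on either strand, were present in KLK3, KLK2 and 1 of the windows of KLK15 (11.5% of all promoters). The forkhead motif TGTTTNC (18% of all promoters) and the canonical element, AGAACA and TGTTCT with 3 bases of any kind between them (0.00285%), were in none of these windows. A match or its absence describes the letters of a window only.

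As the check of the knock-down, SMARCA4 measured 73.4 to 107 TPM (transcripts per 1000000) in the 4 si-NT libraries and 11.4 to 21.7 TPM in the 8 depleted ones, with no overlap. Luminal genes were abundant in every library: the summed level of KRT8, KRT18, EPCAM and CDH1 was 940 to 960 TPM in si-NT and 1018 to 1259 TPM in depleted cells. Basal (KRT5, KRT14, KRT15, TP63), endothelial (VWF, CDH5) and leukocyte (PTPRC, CD3E, CD14, CD68) markers summed to at most 1.20 TPM anywhere. Of 6 stromal markers only COL1A1 reached 1 TPM (summed level 7.03 to 8.60 TPM in si-NT, 3.41 to 9.71 TPM in depleted cells). Of 5 neuroendocrine markers only SYP did, with summed levels of 0.39 to 0.76 TPM against 0.96 to 1.51 TPM. The part that these differences play in the kallikrein values was not tested. TPM does not keep the read depth, so the depth behind each value is unknown.

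In control cells KLK3 was the most abundant of the 5 transcripts, KLK2 and KLK4 were next, and KLK15 and KLKP1 were low. TPM is per length, so these levels can be set beside each other as far as the gene lengths used in it are right. Those lengths are not known here for any of the 5 genes. The annotated model of KLKP1 is short, so its place beside KLK15 is the least sure. KLK3 measured 582 and 442 TPM in si-NT replicates 1 and 2 at 72 h, and 841 and 397 TPM in replicates 1 and 2 at 144 h. KLK2 measured 339 and 333 TPM at 72 h, and 341 and 143 TPM at 144 h. The 3 highest control values of KLK2 lie close together, and replicate 2 at 144 h lies well under them.

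KLK4 measured 204 and 361 TPM in the si-NT replicates at 72 h, and 241 and 125 TPM at 144 h. KLK15 was at 9.52 and 13.5 TPM, then at 7.53 and 5.48 TPM, and KLKP1 at 6.99 and 10.5 TPM, then at 6.11 and 4.07 TPM. For all 5 genes si-NT replicate 2 at 144 h was the lowest of the 4 control libraries. KLK3 exceeded each of the others in 4 of 4 control libraries, and its lowest control value stood above the highest of KLK2 and KLK4. The ranges of KLK2 and KLK4 overlapped, and their order differed between libraries: KLK2 was second in 3 and KLK4 in 1. KLK15 exceeded KLKP1 within each control library, although their ranges overlapped.

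The low values of si-NT replicate 2 at 144 h were not shared by genes in general. Its difference from replicate 1 on the log2(TPM + 1) scale was -1.08 for KLK3, -1.25 for KLK2, -0.94 for KLK4, -0.40 for KLK15 and -0.49 for KLKP1. Over the 16337 genes tested the median difference was -0.01, 8524 were lower in replicate 2, and 1.22% were lower by more than 1. Of 27 other androgen response genes 24 were lower in replicate 2, with a median difference of -0.24. That was not particular to this control. With the siRNA numbered 3 at 144 h, 24 of the 27 were also lower in replicate 2, with a median of -0.31. In the remaining pairs of replicates 5 to 19 of them were lower. NDRG1 is an androgen- and stress-responsive gene picked after its values were seen. It was at 127 TPM in si-NT replicate 1 at 144 h and at 25.3 TPM in si-NT replicate 2. Single members also differed widely between replicates of depleted cells at 72 h. The median over all genes beside them keeps the sign, so it does not measure the size of a typical gap. With the siRNA numbered 2 all 5 were higher in replicate 2, by 1.46 for KLK2 and 1.12 for KLK3, beside a median of 0.16 over all genes. In that pair 4697 of the 16337 genes tested were lower in replicate 2, so most genes ran the same way as the members. With the siRNA numbered 3 all 5 were lower in replicate 2, by -1.39 for KLK2 and -0.97 for KLK3, beside -0.06. KLK4, KLK15 and KLKP1 differed there by only -0.13, -0.20 and -0.13, and 10452 of the 16337 genes tested were lower too. Wide gaps between replicates of KLK2 and KLK3 were thus not confined to the 144 h control.

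**Figure D1:**
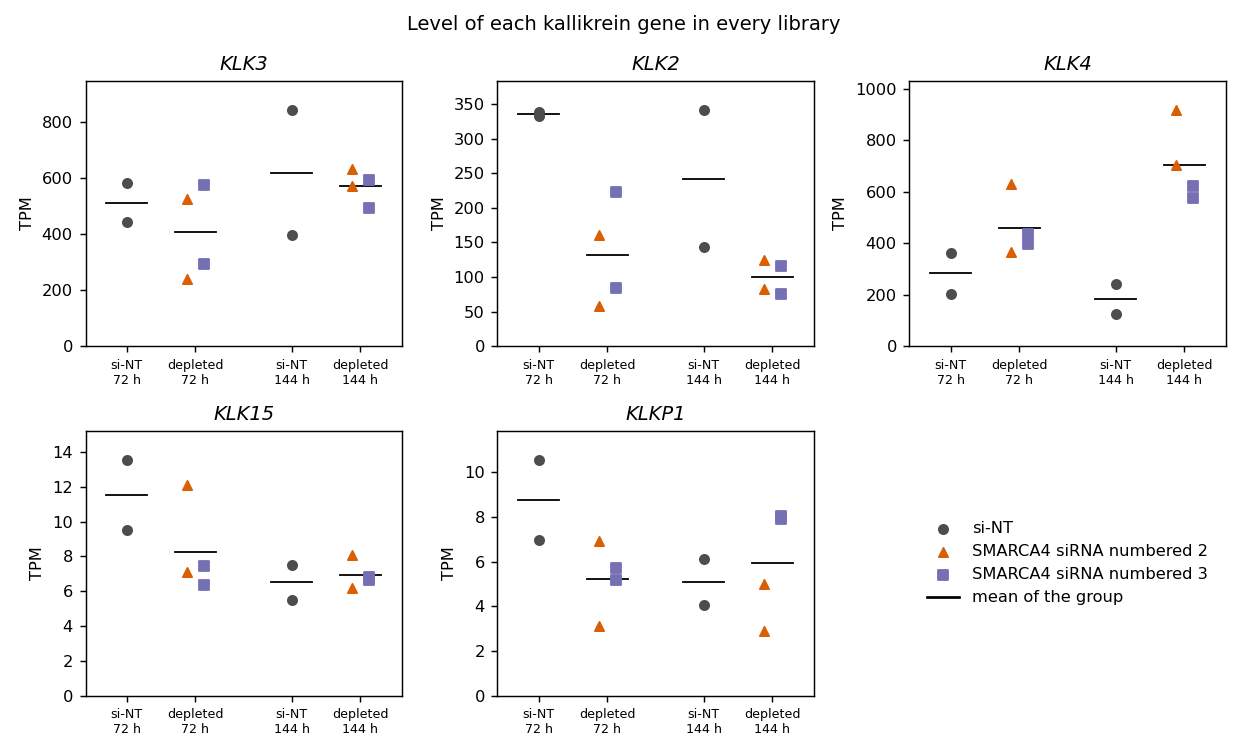
TPM of each gene (y axis, linear, a separate scale per gene) in every library, by group on the x axis. Circles are si-NT, triangles the siRNA numbered 2, squares the siRNA numbered 3, and lines are group means; KLK2 lies below both controls of its time point in all 8 depleted libraries and KLK4 above both.

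KLK4 rose after BRG1 depletion. It measured 365 and 632 TPM with the siRNA numbered 2 and 435 and 398 TPM with the siRNA numbered 3 at 72 h, and 704, 916, 624 and 575 TPM, in the same order, at 144 h. All 8 depleted values lay above all 4 control values. The margin was narrow, with the lowest depleted value at 365 TPM and the highest control at 361 TPM, both at 72 h. The share of all genes tested whose groups lie apart like this was not counted, for this or any such comparison here. The mean at 72 h was 283 ± 111 TPM in si-NT (SD, n = 2) and 457 ± 120 TPM in depleted cells (SD, n = 4), a ratio of 1.62. At 144 h the means were 183 ± 81.9 TPM and 704 ± 151 TPM, a ratio of 3.86. In limma on log2(TPM + 1), fitted to all genes with Benjamini-Hochberg adjustment, the log2 fold change at 144 h was 1.99 (SE 0.31, adjusted p = 0.00129). At 72 h it was 0.72 (SE 0.31, adjusted p = 0.310), which did not pass the threshold of 0.05. As the mean of both time points it was 1.36 (SE 0.22, adjusted p = 0.0013), and the exact permutation test of that mean within time points, two-sided, gave p = 0.00444, the smallest that its 225 arrangements allow.

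Each siRNA gave this result for KLK4 at 144 h in a limma fit with the siRNAs as separate groups. The log2 fold change was 2.21 (SE 0.36, adjusted p = 0.00366) with the siRNA numbered 2, in a comparison where 13.6% of the genes tested were called higher. It was 1.78 (SE 0.36, adjusted p = 0.0104) with the siRNA numbered 3, where 9.83% were. KLK4 also passed a fold change limit of 1.5 on the log2 scale at 144 h, as 0.698% of the genes tested did in that direction. At 72 h the call depended on the controls: when all 4 si-NT libraries were pooled as a single control group, KLK4 was at 1.04 (limma, adjusted p = 0.0396, and 0.0396 to 1 over the alternatives). It was 0.31 without si-NT replicate 1 of that time point and 1.13 without replicate 2.

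KLK2 fell over the mean of both time points. It measured 58.2 and 162 TPM with the siRNA numbered 2 and 223 and 84.4 TPM with the siRNA numbered 3 at 72 h. At 144 h it measured 83.2, 124, 115 and 75.1 TPM in the same order. All 4 depleted libraries of each time point lay below both of its controls, although the lowest control (143 TPM, at 144 h) lay below the 2 highest depleted libraries of 72 h. The mean at 72 h was 336 ± 4.50 TPM in si-NT (SD, n = 2) and 132 ± 74.8 TPM in depleted cells (SD, n = 4), a ratio of 0.392. At 144 h the means were 242 ± 140 TPM and 99.4 ± 23.9 TPM, a ratio of 0.410.

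The log2 fold change of KLK2 over both time points was -1.36 (SE 0.34, limma, adjusted p = 0.0134), and the two-sided exact permutation test gave p = 0.00889 over 225 arrangements. Within a time point it did not pass: it was -1.53 (SE 0.48, adjusted p = 0.152) at 72 h and -1.18 (SE 0.48, adjusted p = 0.0937) at 144 h. The paper, by a different test on read counts, lists KLK2 among the genes lower at both time points. The fold change over both time points lost its call without si-NT replicate 1 at 144 h, at -1.04 (adjusted p = 0.0714, and 0.00531 to 0.0714 over the alternatives). At 144 h alone it was -0.55 without that library and -1.80 without replicate 2. With the si-NT libraries combined it passed at 144 h, at -1.48 (limma, adjusted p = 0.0131).

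KLK3, the neighbour of KLK2, was not called in any comparison. It measured 241 and 525 TPM with the siRNA numbered 2 and 575 and 292 TPM with the siRNA numbered 3 at 72 h, and 572, 631, 595 and 494 TPM in the same order at 144 h. At 144 h all 4 depleted values lay between the 2 controls, and at 72 h 2 of them lay below both. The log2 fold change over both time points was -0.21, with a 95% interval of -0.76 to 0.33 (limma, adjusted p = 0.575). That interval holds no change as well as a decrease of up to -0.76. With TPM rescaled to the ERCC spike-in total it was -0.51 (SE 0.31, limma adjusted p = 0.329), or -0.30 relative to the median of all genes. The spread between depleted libraries at 72 h, 408 ± 166 TPM (SD, n = 4), was wider than at 144 h, 573 ± 58.2 TPM (n = 4).

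KLK15 and KLKP1 were not called either. KLK15 was at 7.10, 12.1, 7.47 and 6.38 TPM in the depleted libraries of 72 h and at 6.17, 8.08, 6.84 and 6.67 TPM in those of 144 h. Its log2 fold change over both time points was -0.18 (95% interval -0.53 to 0.17, adjusted p = 0.443). KLKP1 was at 3.13, 6.93, 5.72 and 5.16 TPM and at 2.90, 5.01, 7.91 and 8.02 TPM, and its fold change was -0.26 (95% interval -0.80 to 0.27, adjusted p = 0.473). All 4 depleted values of KLKP1 lay below both controls at 72 h (-0.66, SE 0.35, adjusted p = 0.430), and at 144 h the groups overlapped. Over both time points, leaving out single libraries moved KLK15 from -0.30 (without si-NT replicate 1 at 72 h) to -0.07 (without replicate 2) and KLKP1 from -0.40 to -0.13 with the same libraries. With ERCC scaling they were at -0.45 and -0.53, and no call was made. The direction of KLK3, KLK15 and KLKP1 at 144 h changed with the processing, so none is given for them at that time.

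Of the 5 members, limma called 0 at 72 h, where 0.557% of the 16337 genes tested were called lower and 1.13% higher. At an unadjusted p under 0.05 there were 2, KLK2 lower and KLK4 higher, where 14.3% of the genes tested passed in either direction. At 144 h KLK4 alone was called, against 10.8% of genes called lower and 13.6% higher. Over both time points KLK2 was called lower and KLK4 higher, against 9.6% lower and 15.1% higher. The median log2 fold change of the members over both time points was -0.21, beside 0.04 over all genes tested.

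**Figure D2:**
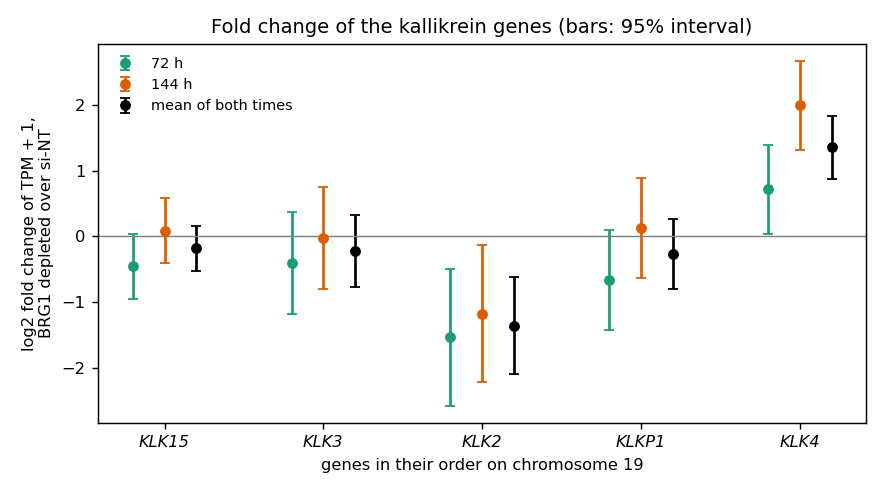
Log2 fold change of TPM + 1, BRG1 depleted over si-NT (y axis), for the 5 genes in their order on chromosome 19 (x axis), at 72 h, at 144 h and as the mean of both. Bars are 95% intervals from limma; those of the mean exclude 0 for KLK2 (-1.36) and KLK4 (1.36) and include it for the other 3.

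The time points were compared next. They differ by the split and second transfection at 72 h as well as by time. By the paper's Western blots, BRG1 protein was also reduced further at 144 h than at 72 h. The fold change of KLK4 was larger at 144 h than at 72 h by 1.28 (SE 0.44, unadjusted p = 0.0131, limma), which did not pass after adjustment (adjusted p = 0.318). At an unadjusted p under 0.05, 11.9% of the genes tested passed. The difference moved with single controls: it was 0.81 (unadjusted p = 0.0945, limma) without si-NT replicate 2 at 144 h and 1.75 without replicate 1. It was 0.87 (unadjusted p = 0.0884, limma) without si-NT replicate 2 at 72 h and 1.69 without replicate 1. The other members differed by 0.36 to 0.80, with adjusted p from 0.516 to 0.876. In this comparison 0.0184% of the genes tested were called. The level of KLK4 was lower in si-NT cells at 144 h than at 72 h by -0.64 (SE 0.36, limma adjusted p = 0.974), and higher in depleted cells by 0.63 (SE 0.25, adjusted p = 0.175). No member was called by limma over time within either condition. Of the genes tested 0% were called in si-NT cells and 4.27% in depleted cells. At an unadjusted p under 0.05, 671 genes (4.11%) passed in si-NT cells, with KLK15 (-0.73, limma) as the member among them. In depleted cells 3576 genes (21.9%) passed, and KLK4 was the member among them, a share of the 5 members near that of all genes.

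The siRNAs were then compared with each other. No member passed, against 0.141% of the genes tested called at 72 h and 0.331% at 144 h. The difference between the siRNA numbered 3 and the siRNA numbered 2 with the smallest p was that of KLKP1 at 144 h, 0.89 (95% interval 0.15 to 1.63, unadjusted p = 0.0235, adjusted p = 0.306, limma), where 13.3% of the genes tested had an unadjusted p under 0.05. KLKP1 was at 2.90 and 5.01 TPM with the siRNA numbered 2 and at 7.91 and 8.02 TPM with the siRNA numbered 3, with no overlap. For KLK4 the difference at 144 h was -0.42 (95% interval -1.23 to 0.39) and for KLK2 -0.12 (95% interval -1.44 to 1.19), so that differences of more than 1 between the siRNAs are inside both intervals.

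Neighbours were compared by their ratio within a library, which does not depend on how the library is scaled. The tests took log2 ratios after adding 1 TPM to each value. For low genes such as KLK15 and KLKP1 these keep some dependence on the scaling. The ratio of KLK2 to KLK3 was 0.583 and 0.754 in si-NT replicates 1 and 2 at 72 h and 0.406 and 0.360 at 144 h. In depleted cells it was 0.242, 0.308, 0.388 and 0.289 at 72 h and 0.146, 0.196, 0.194 and 0.152 at 144 h. Within each time point every depleted library was below both controls. The mean difference of the log2 ratio was -1.14 (two-sided exact permutation test, p = 0.00444, the smallest possible). The difference was -1.13 at 72 h and -1.16 at 144 h.

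The ratio of KLK4 to KLK3 was 0.350 and 0.818 in the si-NT replicates at 72 h and 0.286 and 0.314 at 144 h. In depleted cells it was 1.51, 1.20, 0.758 and 1.36 at 72 h and 1.23, 1.45, 1.05 and 1.16 at 144 h. One depleted library at 72 h, replicate 1 of the siRNA numbered 3, lay below the higher control, and all others lay above both. The mean difference of the log2 ratio was 1.57 (two-sided exact permutation test, p = 0.00889). The ratios of KLK15 and KLKP1 to KLK3 differed by 0.03 and -0.05 (exact permutation p = 0.889 and 0.884). These are 4 ratio tests beside the 5 permutation tests of single genes, and their p-values are not adjusted.

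The ratio of KLK4 to KLK2, looked at after both had been seen to move, was 0.601 to 1.08 in the 4 control libraries and 1.96 to 8.46 in the 8 depleted ones. It was 0.788 ± 0.117 (SD, n = 2) in si-NT and 7.23 ± 1.30 (SD, n = 4) in depleted cells at 144 h. The summed level of the 5 genes was 1103 ± 316 TPM (SD, n = 4) in si-NT and 1200 ± 328 TPM (SD, n = 8) in depleted libraries, with overlapping ranges. Within that sum KLK4 took 21.1% ± 6.8 (SD, n = 4) in si-NT and 48.6% ± 6.2 (SD, n = 8) in depleted cells. KLK2 took 25.9% ± 4.0 and 9.72% ± 3.9, and KLK3 51.6% ± 9.8 and 40.5% ± 3.7. The sizes of these shares rest on gene lengths that are not known here.

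**Figure D3:**
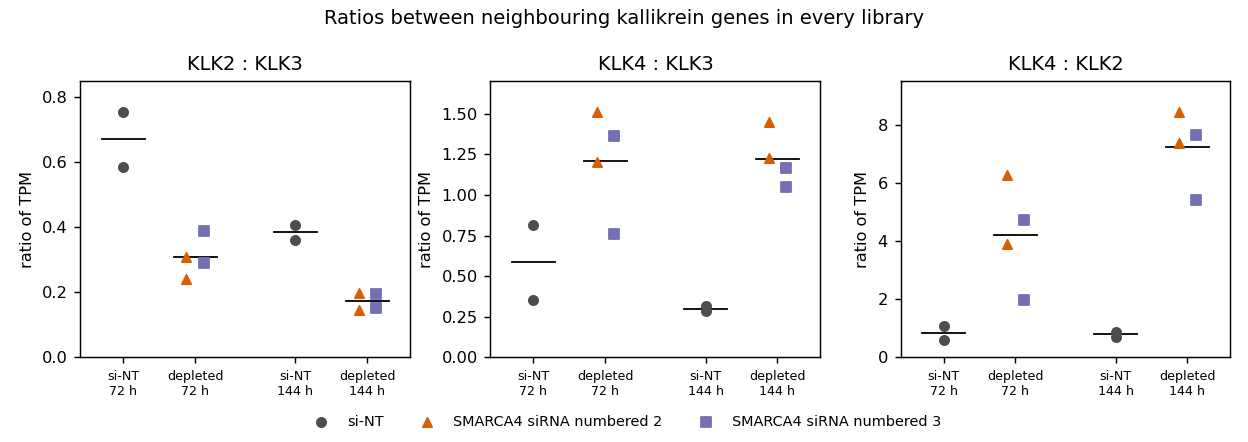
Ratio of TPM between pairs of kallikrein genes in each library (y axis, linear) by group (x axis), with symbols for the siRNAs and lines for group means. The ratio of KLK4 to KLK2 does not exceed 1.08 in si-NT libraries and does not go below 1.96 in depleted ones.

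The order of the levels, which rests on the same gene lengths, changed with it. KLK3 was highest in 4 of 4 control libraries, and KLK4 was highest in 7 of 8 depleted ones. The exception was a 72 h library, the replicate 1 transfected with siRNA number 3, with KLK3 at 575 TPM and KLK4 at 435 TPM. Over all depleted libraries the ranges of KLK3 and KLK4 overlapped, at 241 to 631 and 365 to 916 TPM. KLK2 was in the third place in 8 of 8 depleted libraries, and its highest value there, 223 TPM, lay under the lowest of KLK3. KLK15 was next in 6 and KLKP1 in 2, both with the siRNA numbered 3 at 144 h.

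Along the chromosome the called members did not form a run: KLKP1, which was not called, lies between KLK2 and KLK4. The other 11 genes of the cluster (KLK1 and KLK5 to KLK14) were at no more than 1.10 TPM in any library and none passed the filter of 1 TPM in at least 2 libraries. Of 50 flanking genes within 300 kb of the cluster 14 passed it. Over both time points 9.6% of all genes tested were called lower and 15.1% higher. Of the 14 flanking genes 0 were called lower and 3 higher, with a median of 0.40 beside 0.04 over all genes. These were CLEC11A (0.52, SE 0.12), C19orf48P (0.43, SE 0.09) and VSIG10L (1.23, SE 0.23), with limma adjusted p of 0.00841, 0.00773 and 0.00314. The extremes of the list were CTU1 at -0.05 and the small nucleolar RNA SNORD88A at 1.98, whose SE of 1.27 was too wide for a call.

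**Figure D4:**
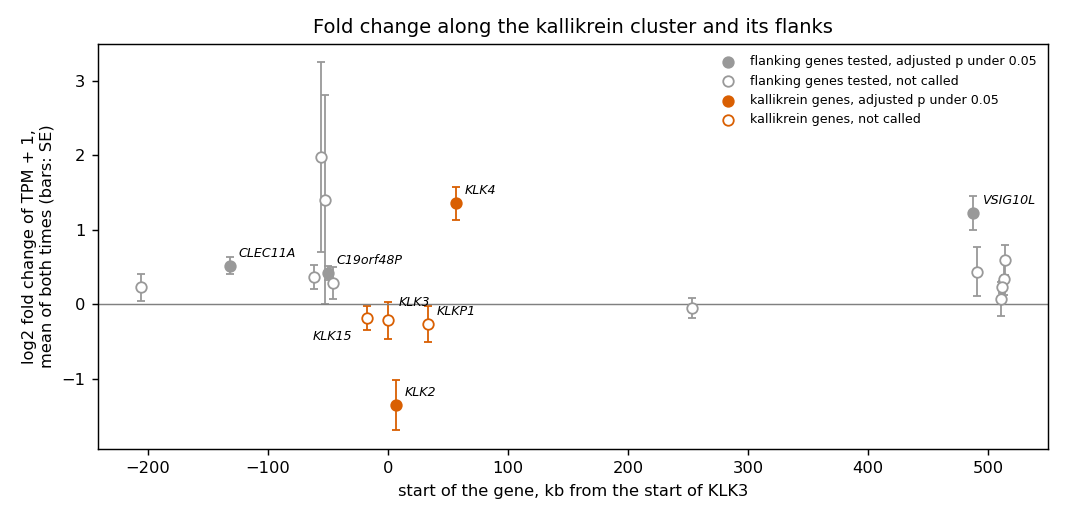
Log2 fold change of TPM + 1 as the mean of both time points (y axis, bars are SE) against the outermost annotated start of each gene, in kb from the start of KLK3 (x axis). Orange marks the 5 kallikrein genes and grey the 14 flanking genes tested, filled where the adjusted p is under 0.05; KLK2 at -1.36 and KLK4 at 1.36 are the called members.

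Several kallikreins are switched on by the androgen receptor, so a list of other androgen response genes was set beside the members. How far androgen drives each member was not measured here. Of 29 listed genes 27 were tested. Over both time points 1 of them was called lower and 8 higher, against 9.6% and 15.1% of all genes tested. Their median was 0.22, beside 0.04 over all genes. The largest fold changes were those of ACP3, the gene of prostatic acid phosphatase, at 1.42 (SE 0.19, limma adjusted p = 0.000527), and SPOCK1 at 1.35 (SE 0.25, adjusted p = 0.0031). The smallest were those of ADAMTS1, a secreted metalloprotease, at -0.55 (SE 0.16, adjusted p = 0.0258), and TRPM8, a cation channel, at -0.52 (SE 0.19, adjusted p = 0.0638). On the log2(TPM + 1) scale KLK2 at -1.36 lay below every gene of the list, and KLK4 at 1.36 lay above all but ACP3. That scale understates the change of low genes such as SPOCK1. Its mean at 144 h was 0.705 TPM in si-NT and 6.54 TPM in depleted cells, so the order of KLK4 and SPOCK1 depends on the scale. KLK3 at -0.21 lay among genes that were not called.

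**Figure D5:**
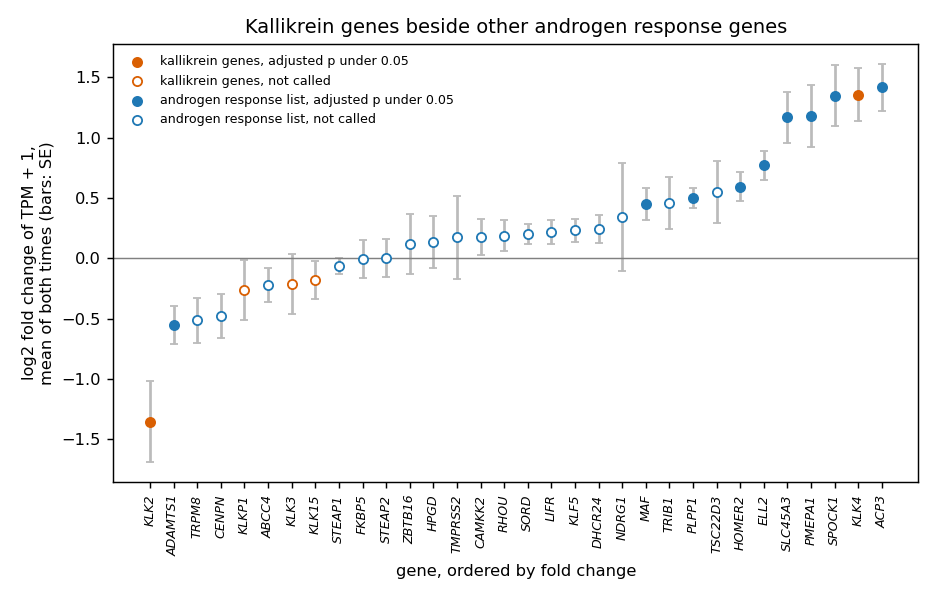
Log2 fold change of TPM + 1 as the mean of both time points (y axis, bars are SE) for the 5 kallikrein genes (orange) and the 27 other androgen response genes tested (blue), ordered by value on the x axis. Filled points have an adjusted p under 0.05; KLK2 is the lowest at -1.36, and ACP3 (1.42) and KLK4 (1.36) are the highest.

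Of 6 transcription factors listed as acting on these genes 4 were tested. Over both time points 2 of them were called higher and 0 lower, against 15.1% and 9.6% of all genes tested. Their median was 0.28, beside 0.04 over all genes. The largest fold change was that of GRHL2, a grainyhead-like factor of epithelial cells, at 0.35 (SE 0.07, limma adjusted p = 0.00397). The smallest was that of FOXA1, a pioneer factor, at 0.08 (SE 0.09, adjusted p = 0.552). FOXA1 measured 171 to 184 TPM in control and 160 to 240 TPM in depleted cells. GATA2 (0.34), a zinc finger factor, was the other called.

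Among 19 inhibitors, substrates and companion proteases of the kallikreins 13 were tested. Of these 1 was called lower and 4 higher over both time points, against 9.6% and 15.1% of all genes tested. Their median was 0.16, beside 0.04 over all genes. The called gene at the low end was FN1, encoding fibronectin, a protein of the extracellular matrix, at -0.66 (SE 0.17, limma adjusted p = 0.0169). The largest fold change was that of ST14, encoding the membrane protease matriptase, at 0.62 (SE 0.08, adjusted p = 0.000399). The Kunitz-type protease inhibitors SPINT1 (0.42) and SPINT2 (0.34) and the membrane protease PRSS8 (0.47) were called higher. With TPM rescaled to the ERCC spike-in total the calls of all 4 lists dropped, as described under the dependence on processing.

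Finally, the genes whose levels ran most like those of single members over the 12 libraries were named, among 10981 other genes with a mean of at least 5 TPM, by Pearson's r of log2(TPM + 1). For KLK3 these were ABCC4 (r = 0.895), YAF2 (0.833), PARVA (0.83), TPM1 (0.826) and CPSF7 (0.821). KLK2 ranked 213 for KLK3 (r = 0.572), KLKP1 1449, KLK4 3698 and KLK15 3783. For KLK2 the most alike were MYBPC1 (0.946), CCDC57 (0.927), JDP2 (0.925), SFXN3 (0.925) and DDIT4 (0.925). KLK15 ranked 1323 for KLK2 (r = 0.58), KLK3 1381 (r = 0.572), KLKP1 1577 (r = 0.549) and KLK4 8885 (r = -0.429). The 12 points share 4 groups, so these values describe the libraries and carry no p.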

How the data were processed

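RNA-seq was made from 12 libraries of LNCaP cells. As the methods describe, the authors mixed ERCC spike-ins into the RNA, prepared strand-specific mRNA libraries and sequenced them paired-end. They ran the alignment on hg19 (GRCh37) using STAR 2.4.0j, per the submitters' processing notes. Counting was by featureCounts, and TPM was determined on GENCODE release 19. The authors also used the spike-ins to normalise the read counts, whereas the main fit here did not rescale TPM to them. The deposited values are TPM with the spike-ins inside each library's total of 1000000. The strand setting of the counting is not given in the sources used here. No stretch of 100 bases was shared between annotated transcripts of different members, so reads of that length are not identical between them. Read depth is not kept in TPM.

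Groups came from the sample titles. The filter kept 16337 genes that reached 1 TPM in 2 or more libraries, and limma 3.58.1 in R 4.3.3 (lmFit, eBayes with trend) was run on log2(TPM + 1), in 4 groups of all 12 libraries, with Benjamini-Hochberg adjustment over all genes tested. A gene was called at an adjusted p under 0.05. A fold change on this scale understates the change of low genes. A fit with 6 groups compared the siRNAs. Exact permutation tests exchanged libraries within time points (225 arrangements). Both procedures were tested on simulated data. The members and lists were chosen with earlier results of these data known. Named list genes are the extremes of each list over both time points; NDRG1 and the other called genes of short lists were named after their values were seen. Some listed genes are not reported here, and 1 endothelial marker, PECAM1, was not matched. Older symbols (ACPP, PPAP2A) were matched through RefSeq synonyms to ACP3 and PLPP1. Promoters are RefSeq entries of GRCh38.p14; KLKP1 was without one in the table used. Alternatives are described under the dependence on processing.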

Additional observations from a re-analysis of the deposited data

How the results depend on the processing

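The alternatives were a pseudocount of 0.1 TPM, median-of-ratios size factors, ERCC scaling, no filter, a mean of at least 5 TPM, a replicate block, eBayes without trend, a fit of each time point's 6 libraries alone, the si-NT libraries combined, and each library left out in turn. KLK4 at 144 h and over both time points, and the within-library ratios of KLK2 and KLK4 to KLK3, kept direction and call under every alternative run for them. With the si-NT libraries combined 1 member was called at 72 h (KLK4, 1.04) and 2 at 144 h (KLK2 at -1.48 besides KLK4), and KLK3 at 144 h was 0.075, KLK15 -0.28 and KLKP1 -0.20. With ERCC scaling KLK15 at 144 h was -0.27 and KLKP1 -0.22, or 0.05 and 0.09 relative to the median of all genes, which this scaling moved to -0.31 at 144 h. ERCC scaling turned the calls of all genes over both time points from 1568 lower and 2470 higher (61.2% higher) to 618 and 143 (18.8%), and size factors gave 2150 and 2241 (51.0%); at 72 h the higher share of 66.9% became 25.0% and 50.0%, and at 144 h 55.8% became 18.4% and 51.9%. KLK2 with ERCC scaling was -1.65 and KLK4 1.06 over both time points (limma, adjusted p = 0.0099 and 0.0374). The spike-in share that sets this scaling was 0.805% and 1.336% in si-NT replicates 1 and 2 at 144 h. Over all libraries it ran from 0.805% to 1.966%, the highest in replicate 2 of the siRNA numbered 3 at 144 h.

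For the lists, added after seeing the data, ERCC scaling left 2 androgen response genes, 0 transcription factors, 1 partner and 0 flanking genes called, and combined si-NT libraries gave 5 flanking genes. The 2 transcription factors called became 1 with no filter, and 1 without either si-NT replicate at 144 h, si-NT replicate 1 at 72 h or replicate 1 of the siRNA numbered 2 at 144 h. When libraries were left out in turn, the members called over both time points were 1 to 2, the flanking genes 1 to 5 and the partners 3 to 6. The flanking count was 1 and the partner count 3 without si-NT replicate 2 at 144 h. The fold change over both time points ranged from -1.67 to -1.04 for KLK2 and from -0.48 to 0.056 for KLK3. At 144 h it ranged from -0.56 to 0.52 for KLK3, from -0.11 to 0.29 for KLK15 and from -0.11 to 0.39 for KLKP1. The difference between the time points ranged from -0.27 to 0.98 for KLK2, from -0.15 to 0.93 for KLK3 and from 0.81 to 1.75 for KLK4. The ratio to KLK3 ranged from -0.18 to 0.25 for KLK15 and from -0.28 to 0.18 for KLKP1. Why these values moved was not tested, and with 2 control libraries a time point each weighs heavily.

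The replicate numbers share no stated culture or day, and libraries of the same number did not deviate together (r of -0.23 to 0.30 over 15 pairs of arms, 2 over 0.1), so they were not treated as pairs. The replicate block changed no call of a member, and KLK2 over both time points was -1.36 in it. At 72 h it called 58 genes lower and 121 higher, against 91 and 184 without it. The 275 genes called at 72 h became 32 with ERCC scaling, 18 in the fit of 6 libraries, 1206 with combined controls and 39 to 279 without single libraries. The 3983 called at 144 h became 752 with ERCC scaling and 1150 to 4309 without single libraries, and the 4038 over both time points 761 and 2185 to 3972. The 3 genes called for the difference between the time points became 7 with size factors, 22 with no filter and 1 to 10 without single libraries.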
